A study of Homo sapiens with 9 samples.

Results

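The respiratory chain genes are those whose products form or help to build the 5 enzyme complexes of oxidative phosphorylation. They were chosen by symbol from the deposited count table: the NDUFA, NDUFB, NDUFC, NDUFS and NDUFV families (complex I), SDHA to SDHD (complex II), UQCR (complex III), COX4 to COX8 (complex IV) and ATP5 (complex V), plus the 13 protein-coding genes of the mitochondrial genome. The rule found 112 of the 26240 genes in the table, 99 of them nuclear and 13 mitochondrially encoded. The nuclear genes comprise 85 subunits, 12 assembly factors with NDUFAF or SDHAF symbols, the ATP synthase inhibitor ATP5IF1 and the readthrough gene ATP5MF-PTCD1. The rule passed over 30 pseudogenes, 6 antisense or divergent noncoding genes and 13 mitochondrial ribosomal or transfer RNAs. CYC1, a complex III subunit, lies outside the symbol rule, and COX7B2, COX8C and NDUFC2-KCTD14 were not analysed here.

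The RNA came from definitive endoderm made in culture from H9, a widely used human embryonic stem cell line. CHD7, which encodes a chromatin remodeller, had been deleted with CRISPR/Cas9, and the study asked how expression differed among the genotypes. There were 3 wild-type (CHD7+/+), 3 heterozygous (CHD7+/-) and 3 homozygous mutant (CHD7-/-) libraries, all from the same parental line and differentiated the same way as far as the labels say. No clone, culture or day is named for any library, so a p-value here reflects library-to-library spread, part or all of which may be technical. Differences between clones or cultures cannot be told apart from those between genotypes.

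The respiratory chain passes electrons from NADH and succinate through complexes I to IV to oxygen while protons are pumped across the inner mitochondrial membrane, and complex V uses the return of those protons to make ATP. Its subunits come from both genomes: the mitochondrial genome encodes core subunits of complexes I, III, IV and V, and the nucleus encodes all of complex II, the remaining subunits and every assembly factor. Pluripotent cells rely heavily on glycolysis, and the use of respiration changes as they differentiate.

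The libraries held between 11854173 (homozygous replicate 1) and 37519729 counts (wild-type replicate 1). CHD7 followed the labels, with 193 ± 3.29 CPM (counts relative to library size after TMM scaling) in wild-type, 123 ± 11.2 in heterozygous and 51.5 ± 7.41 in homozygous cells (mean ± SD, n = 3 each). The summed level of 8 definitive endoderm markers was 10330 to 11130 CPM in wild-type, 8629 to 9664 in heterozygous and 6964 to 8100 in homozygous libraries. Such a sum is weighted to its most abundant genes. The median log2 fold change of the 8 was -0.16 in homozygous and -0.17 in heterozygous cells against wild type, and 0.01 between the mutants. Against wild type 2 of them were called lower in homozygous cells, beside 4.18% of all genes, and 0 in heterozygous cells. The summed level of 5 pluripotency markers was 2431 to 2595 CPM in wild-type, 2122 to 2457 in heterozygous and 2222 to 2312 in homozygous libraries. On this sum every homozygous library lay below every wild-type library. Their median log2 fold change against wild type was -0.16 in homozygous cells but 0.35 in heterozygous cells. Between the mutants it was -0.83, and 1 of the 5 was called lower in homozygous cells, beside 1.22% of all genes. Of 5 trophoblast and amnion markers the sums were 10.0 to 12.7, 13.4 to 13.9 and 23.5 to 31.2 CPM. Of the 3 tested, 2 were called higher in homozygous cells against wild type (median log2 1.23) and against heterozygous cells (1.42). The shares of all genes were 3.5% and 0.986%. Of 5 mesoderm markers the sums were 43.4 to 58.9, 32.4 to 41.4 and 20.8 to 34.4 CPM. Of the 3 tested, 1 was called lower in homozygous cells against wild type, beside 4.18% of all genes. Shares of other cell types and RNA per cell cannot be told apart in these bulk samples, and the part of these markers in the results below was not tested.

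Homozygous replicate 2 differed most from the wild-type mean by transcript length, and heterozygous replicates 1 and 3 differed less and in opposite directions. Among genes outside the respiratory chain, the 1437 with transcripts under 750 bases had a median log2 difference from the wild-type mean of 0.23 in homozygous replicate 2, 0.08 in heterozygous replicate 1 and -0.10 in heterozygous replicate 3. The 5967 with transcripts of at least 3000 bases were at -0.17, -0.07 and 0.05 in those libraries. Nuclear respiratory chain transcripts are short, with a median of 757 bases against 2332 for all tested genes. Counts and medians of the chain are therefore given with and without these libraries where they change.

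Only 1 respiratory chain gene passed the test in either comparison with wild type: NDUFAF1, an assembly factor of complex I, which was about 2 times higher in both mutants. Its level was 7.30, 6.92 and 7.76 CPM in wild-type replicates 1 to 3, 16.0, 14.8 and 14.1 in heterozygous and 14.8, 20.2 and 16.7 in homozygous libraries. Each of the 6 mutant libraries lay above each wild-type library, while the mutant genotypes overlapped each other. NDUFAF1 rose 2.37-fold in homozygous cells (log2 fold change 1.25, SE 0.14, adjusted p = 0.000101, edgeR quasi-likelihood test with Benjamini-Hochberg adjustment over 16837 genes). It rose 2.04-fold in heterozygous cells (log2 1.03, SE 0.13, adjusted p = 0.000989 in the same fit), and that comparison shares its wild-type libraries with the first. Homozygous and heterozygous cells differed by a log2 of 0.21 (95% interval -0.04 to 0.47, adjusted p = 0.396). The homozygous call held in each alternative run, with log2 values from 1.11 to 1.34. The heterozygous call held in each except a test against a 1.5-fold change (edgeR glmTreat, adjusted p = 0.0927), with log2 values from 0.98 to 1.07.

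**Figure D1:**
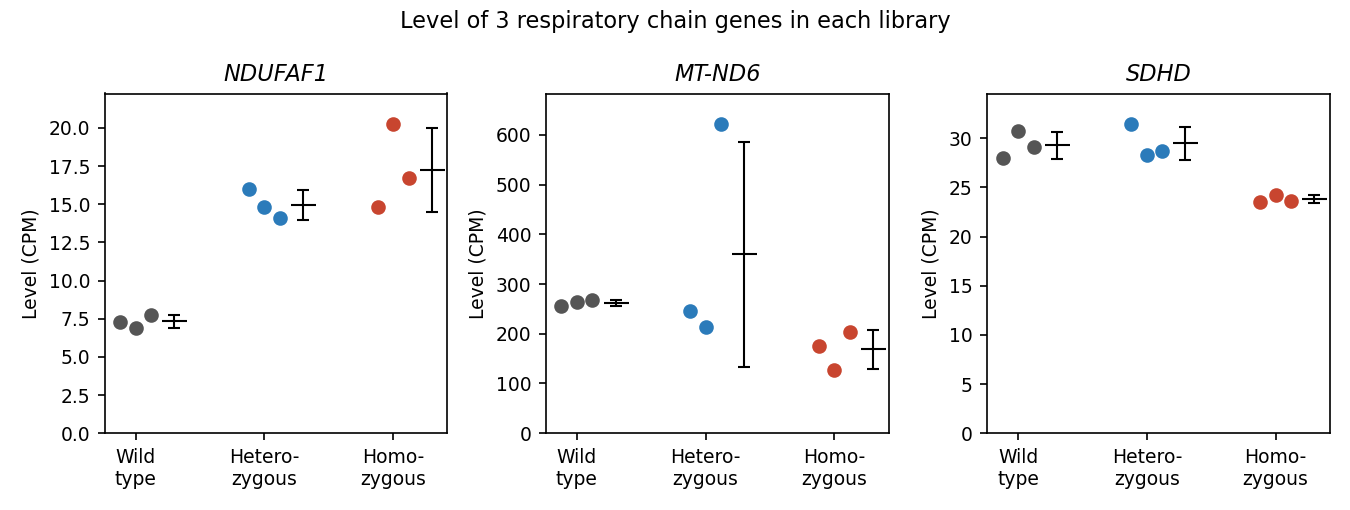
Level in CPM (linear axis from 0) of NDUFAF1, MT-ND6 and SDHD in each of the 9 libraries; coloured points are libraries in replicate order, and the black marks show the mean and SD of 3 libraries. All mutant libraries lie above wild type for NDUFAF1 (14.1 to 20.2 against 6.92 to 7.76 CPM), while 1 heterozygous library stands apart for MT-ND6 (621 CPM), and the homozygous libraries lie lowest for SDHD (23.5 to 24.3 CPM).

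NDUFAF1 (ENSG00000137806) lies on the minus strand of chromosome 15, from 41387349 to 41402519 in GENCODE release 29 on GRCh38. Its raw counts ranged from 177 (homozygous replicate 1, the shallowest library) to 611 (homozygous replicate 2). Within 250 kb of it on either side, 14 genes had a row and 7 others were tested, and 0 of those 7 were called in either mutant. Of all tested genes 7.68% were called in homozygous and 1.86% in heterozygous cells, so 0 of 7 says little. The 250 bases before its RefSeq start (GRCh38.p14, chr15:41402497-41402746, minus strand, 5′ to 3′) are shown because it was the called member, with no base marked by capitals.
NDUFAF1: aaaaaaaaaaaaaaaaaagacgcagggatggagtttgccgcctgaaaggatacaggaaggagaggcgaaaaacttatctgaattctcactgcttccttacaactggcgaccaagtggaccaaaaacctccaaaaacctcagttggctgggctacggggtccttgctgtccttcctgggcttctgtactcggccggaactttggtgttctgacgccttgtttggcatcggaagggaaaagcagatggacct
This stretch is 48.8% G or C and holds 9 CpG dinucleotides.

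The 11 other assembly factors, 7 for complex I and 4 for complex II, had log2 fold changes between -0.07 and 0.32 in homozygous cells against wild type, with a lowest adjusted p of 0.276 (edgeR). In heterozygous cells they lay between -0.20 and 0.33, with a lowest adjusted p of 0.384. NDUFAF4, which works early in complex I assembly, was the most abundant of the assembly factors in wild type, with 21.6, 25.9 and 28.5 CPM there, 24.4, 21.5 and 20.01 in heterozygous and 23.4, 25.9 and 22.8 in homozygous libraries. Those values overlap between all genotypes. A list of 42 further assembly factors outside the symbol rule held 0 called genes in each comparison by edgeR. Of all genes 7.68% were called in homozygous and 1.86% in heterozygous cells against wild type, and 2.21% between the mutants.

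Of the nuclear genes, 92 of 99 passed the filter on low counts, as did all 13 mitochondrial genes. The 7 removed genes were NDUFV2, COX4I2, COX6A2, COX6B2, NDUFA4L2, ATP5MGL and ATP5MF-PTCD1, none of which exceeded 10 counts in any library. NDUFV2, a core subunit of complex I, had 62 counts in all against 402 for its processed pseudogene NDUFV2P1, so its count is uncertain. In homozygous cells against wild type, 1 of 92 nuclear genes was called, NDUFAF1, which was higher; of all tested genes 7.68% were called, 3.5% higher and 4.18% lower. Among the 79 tested nuclear subunits 0 were called by edgeR, 14 had an unadjusted p under 0.05 beside 23.2% of all tested genes, and the lowest adjusted p was 0.0635. DESeq2 called 3 nuclear genes, NDUFAF1, SDHD and ATP5PO. In heterozygous cells 1 of 92 was called, again NDUFAF1 and higher, beside 1.86% of all tested genes (0.82% higher, 1.04% lower). There 0 of 79 nuclear subunits were called or had an unadjusted p under 0.05, where 13.5% of all genes did (7.27% higher, 6.24% lower), and DESeq2 also called 1 nuclear gene. Between the mutants 0 of 92 were called by edgeR, beside 2.21% of all genes (0.986% higher and 1.22% lower in homozygous cells), and DESeq2 called 2, NDUFB8 and SDHD. There 18 nuclear genes had an unadjusted p under 0.05 beside 18.3% of all genes, 15 of them higher and 3 lower beside 8.04% and 10.2% of all genes.

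The nuclear genes nevertheless lay slightly to 1 side in homozygous cells. Their median log2 fold change was 0.19 against wild type, with 78 of 92 above 0, where all tested genes had a median of 0.01 and 51.4% above 0. The libraries did not overlap for 16 nuclear genes that were higher and 2 that were lower, beside 13.2% and 15.7% of all tested genes. In heterozygous cells the median was 0.00, with 47 of 92 above 0 beside 50.8% of all genes, and 7 nuclear genes did not overlap on the higher and 3 on the lower side, beside 11.1% of all genes on each. Against heterozygous cells the homozygous median was 0.20, with 77 of 92 above 0 beside 51.0% of all genes, and 10 nuclear genes lay higher and 3 lower without overlap, beside 9.02% and 10.5%. The homozygous shift was much smaller without 1 library: without homozygous replicate 2 the median was 0.03 against wild type and 0.04 against heterozygous cells, and with an offset for transcript length it was 0.07 in both. With both homozygous replicate 2 and heterozygous replicate 3 left out, the median was 0.03 against wild type and turned to -0.03 against heterozygous cells. The heterozygous median against wild type was -0.09 without heterozygous replicate 1 and 0.04 without heterozygous replicate 3. Leaving out homozygous replicate 3 instead raised the number of called nuclear genes from 1 to 10, all but NDUFAF1 of them subunits or ATP5IF1, while 2118 of 17387 genes were called in that fit against 1293 of 16837. Leaving out heterozygous replicate 3 gave 3 called nuclear genes, with 1610 of 17477 genes called.

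**Figure D2:**
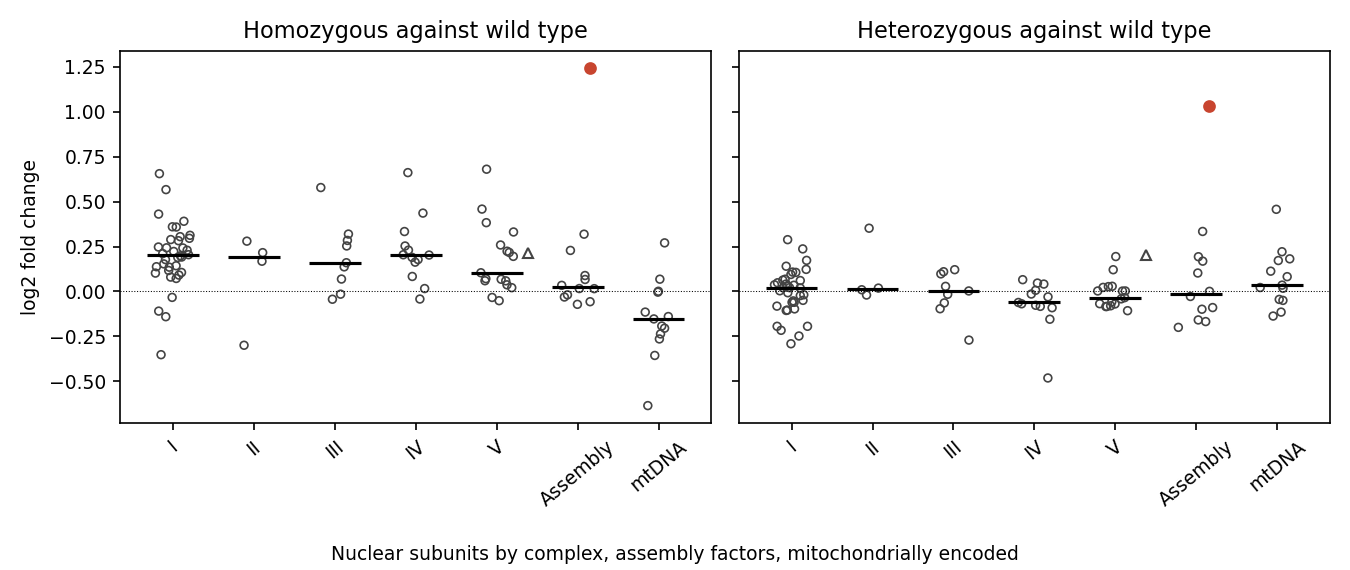
Log2 fold change of each tested member against wild type (left homozygous, right heterozygous) by complex, for assembly factors and for mitochondrially encoded genes (mtDNA); circles are genes, the triangle beside complex V is ATP5IF1, filled red circles passed the adjusted p of 0.05, and bars are medians. NDUFAF1 (1.25 and 1.03) is the red point in both panels; subunit medians lie between 0.10 and 0.20 for homozygous cells and the mitochondrial median at -0.15.

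Complex I oxidises NADH. Its 36 tested nuclear subunits had a median log2 fold change of 0.20 in homozygous and 0.02 in heterozygous cells against wild type. NDUFS5, its most abundant nuclear subunit per exonic kilobase in wild type (265 ± 11.04 CPM per kilobase, SD, n = 3), had 144, 140 and 152 CPM in wild-type, 153, 146 and 143 in heterozygous and 141, 190.7 and 140 in homozygous libraries. Homozygous replicate 2 was the highest of the 9 and the genotypes overlapped. NDUFB8, an accessory subunit, was the complex I gene closest to the threshold between the mutants and is named after its values were seen. It had 3.41, 3.44 and 3.53 CPM in wild-type, 3.22, 3.29 and 1.91 in heterozygous and 4.51, 6.19 and 4.49 in homozygous libraries. Its log2 difference of homozygous from heterozygous cells was 0.86 (SE 0.22, adjusted p = 0.0683, edgeR), and 48.5% of its exonic bases overlap another gene, so its count is uncertain. NDUFA5, also named after its values were seen, pointed the other way, with all homozygous libraries (33.8, 28.5 and 33.8 CPM) below all wild-type libraries (40.9, 43.0 and 38.2 CPM) and an adjusted p of 0.139 (edgeR).

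Complex II oxidises succinate and is wholly nuclear. SDHB, its iron-sulfur subunit, was its most abundant gene per kilobase (16.2 ± 0.755 CPM per kilobase in wild type), with 38.1, 40.1 and 41.8 CPM in wild-type, 45.7, 38.9 and 36.8 in heterozygous and 46.1, 50.8 and 42.2 in homozygous libraries. The homozygous libraries lay above wild type by a log2 of 0.22 (SE 0.10, adjusted p = 0.236, edgeR). SDHD, a membrane anchor subunit named here after its values were seen, was the nuclear subunit nearest to the threshold. It had 28.0, 30.8 and 29.1 CPM in wild-type, 31.4, 28.3 and 28.7 in heterozygous and 23.5, 24.3 and 23.6 in homozygous libraries. The homozygous libraries lay below all 6 others, with a log2 difference from wild type of -0.30 (95% interval -0.48 to -0.12, adjusted p = 0.0635, edgeR). With DESeq2 the adjusted p was 0.0330 and with the transcript length offset in edgeR it was 0.0137. No other alternative run called SDHD against wild type. SDHA, the catalytic subunit, reached 1.504 to 2.62 CPM. The near-identical pseudogenes SDHAP1, SDHAP3 and SDHAP4 had 6.90 to 10.3, 9.28 to 13.1 and 12.5 to 20.8 CPM, so the SDHA count is uncertain.

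Complex III passes electrons from ubiquinol to cytochrome c. Its 9 tested nuclear subunits had medians of 0.16 in homozygous and 0.00 in heterozygous cells. UQCRH, the hinge subunit, was its most abundant gene per kilobase (107 ± 5.68 CPM per kilobase in wild type), with 157, 141 and 153 CPM in wild-type, 169, 148 and 174 in heterozygous and 184.96, 222 and 157 in homozygous libraries. Its homozygous and wild-type libraries overlapped by replicate 3 against replicate 1 (log2 0.32, SE 0.12, adjusted p = 0.116, edgeR). UQCRHL, an intronless copy of UQCRH, stayed between 0.721 and 2.65 CPM, and reads of the pair may have been split.

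Complex IV reduces oxygen. Its 13 tested nuclear subunits, which include NDUFA4, had medians of 0.20 in homozygous and -0.06 in heterozygous cells. COX6B1, its most abundant subunit gene per kilobase (108 ± 5.20 CPM per kilobase in wild type), had 107, 98.9 and 98.2 CPM in wild-type, 112, 97.1 and 80.9 in heterozygous and 101, 151 and 104 in homozygous libraries. The highest and the lowest of the 9 values were homozygous replicate 2 and heterozygous replicate 3, and the genotypes overlapped.

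Several complex IV subunits have a second form used in muscle, lung or testis, and the general forms dominated in all 3 genotypes. COX4I1 had 200.3 to 305 CPM, while COX4I2, the form of lung and low oxygen, had 0 counts in all 9 libraries, which allows at most 0.0127 CPM over the pooled 236197694 counts (counting error only). COX6A1 had 26.2 to 56.4 CPM against 4 counts of COX6A2 in all, and COX6B1 had 80.9 to 151 CPM against 12 counts of the testis form COX6B2. COX7A2 had 82.9 to 132 CPM and COX7A2L, which acts in supercomplex assembly, 83.1 to 103 CPM, against 0.381 to 2.48 CPM of the muscle form COX7A1. COX7A1 did not overlap between heterozygous (0.977, 0.987 and 0.381 CPM) and homozygous libraries (1.504, 2.48 and 1.15 CPM), with a log2 difference of 1.14 (SE 0.37, adjusted p = 0.136, edgeR). COX8A had 17.9 to 55.0 CPM. NDUFA4 had 123 to 167 CPM against 22 counts in all of its oxygen-regulated relative NDUFA4L2. None of the tested genes in these groups was called in any of the 3 comparisons by edgeR.

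Complex V makes ATP. Its 17 tested nuclear subunits had medians of 0.10 in homozygous and -0.03 in heterozygous cells. ATP5F1B, the catalytic beta subunit, was the most abundant nuclear member (327 ± 6.61 CPM per kilobase in wild type), with 747, 753 and 776 CPM in wild-type, 763, 758 and 651 in heterozygous and 695, 786 and 715 in homozygous libraries. Its log2 difference of homozygous from wild-type cells was -0.05 (95% interval -0.21 to 0.11), and heterozygous replicate 3 was the lowest library. The 3 genes for the identical mature c-ring subunit kept their order in every library, with 21.6 to 28.8 CPM of ATP5MC1, 110 to 181 of ATP5MC2 and 163 to 223 of ATP5MC3. ATP5PO, a stalk subunit named after its values were seen, had 15.7, 17.0 and 17.5 CPM in wild-type, 21.1, 20.2 and 13.1 in heterozygous and 23.5, 36.7 and 19.6 in homozygous libraries. All homozygous libraries lay above wild type, by a log2 of 0.68 (SE 0.22, adjusted p = 0.0783, edgeR). The adjusted p was 0.0296 by DESeq2, and in edgeR 0.0143 without homozygous replicate 3 and 0.0418 without heterozygous replicate 3. ATP5PO was not called without homozygous replicate 2, its highest library, or with the transcript length offset. ATP5IF1, which inhibits the enzyme when it runs in reverse, had 42.5, 40.7 and 39.5 CPM in wild-type, 47.9, 43.3 and 49.97 in heterozygous and 49.1, 54.8 and 38.2 in homozygous libraries. Its log2 difference from wild type was 0.21 in homozygous and 0.20 in heterozygous cells (SE 0.12 each, adjusted p = 0.311 and 0.506, edgeR).

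The nuclear subunits of all 5 complexes stood highest in the same library. In homozygous replicate 2 the median log2 difference from the wild-type mean was 0.41 for complex I, 0.32 for II, 0.40 for III, 0.49 for IV and 0.37 for V. In homozygous replicates 1 and 3 the medians of the 5 complexes lay between -0.04 and 0.08. Heterozygous replicate 1 had medians of 0.11 (complex V) to 0.14, and heterozygous replicate 3 between -0.25 (complex IV) and -0.06 (complex II). The nuclear members moved in the same direction as short transcripts of other genes in homozygous replicate 2, heterozygous replicate 1 and heterozygous replicate 3. The part of transcript length or RNA quality in this was not tested beyond the length offset given above.

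**Figure D3:**
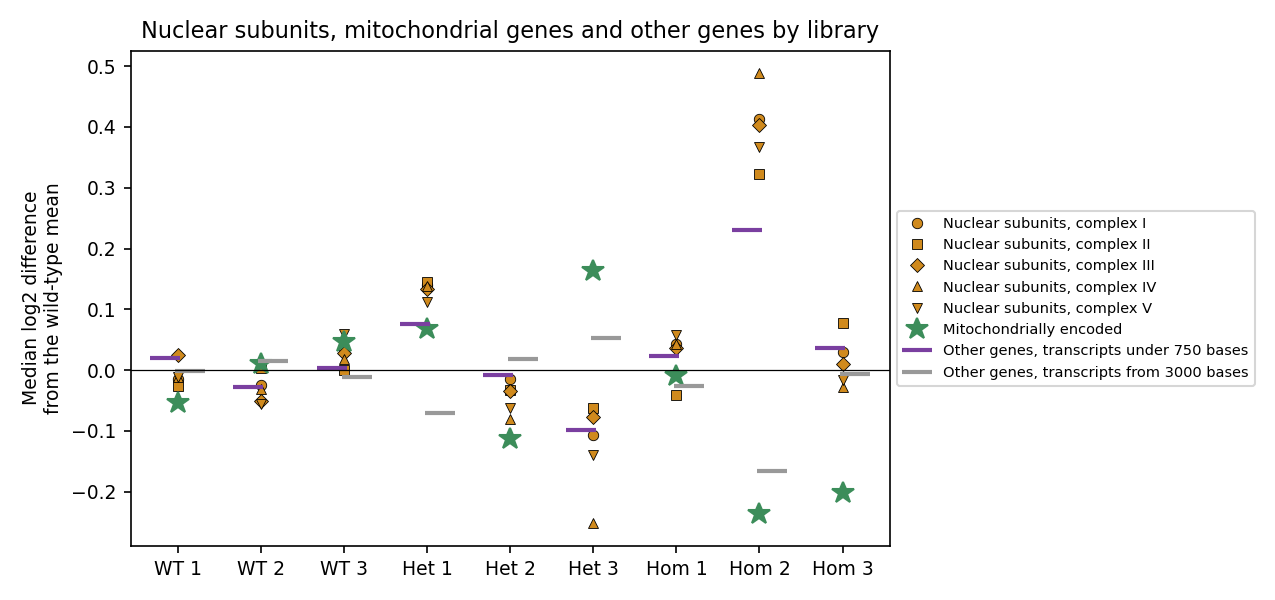
Median log2 difference from the wild-type mean in each of the 9 libraries, for the nuclear subunits of each complex (orange), the 13 mitochondrially encoded genes (green stars) and genes outside the respiratory chain with short or long transcripts (purple and grey dashes). In homozygous replicate 2 the 5 complexes lie at 0.32 to 0.49 beside 0.23 for short transcripts, while the mitochondrial median lies at -0.24.

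The 13 mitochondrially encoded genes took up 4.85 ± 0.168% of all counts in wild-type, 5.33 ± 0.695% in heterozygous and 4.67 ± 0.397% in homozygous cells (SD, n = 3). By library the share was 4.66, 4.89 and 4.99% in wild-type, 5.25, 4.68 and 6.06% in heterozygous and 5.12, 4.50 and 4.39% in homozygous replicates. The genotypes overlapped, and heterozygous replicate 3 was highest. The 99 nuclear genes summed to 6687 ± 148, 6668 ± 582 and 7346 ± 1041 CPM. The ratio of mitochondrial to nuclear counts was 7.02, 7.64 and 7.51 in wild-type, 7.18, 7.03 and 9.84 in heterozygous and 7.38, 5.20 and 6.58 in homozygous libraries. It was highest in heterozygous replicate 3 and lowest in homozygous replicate 2.

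**Figure D4:**
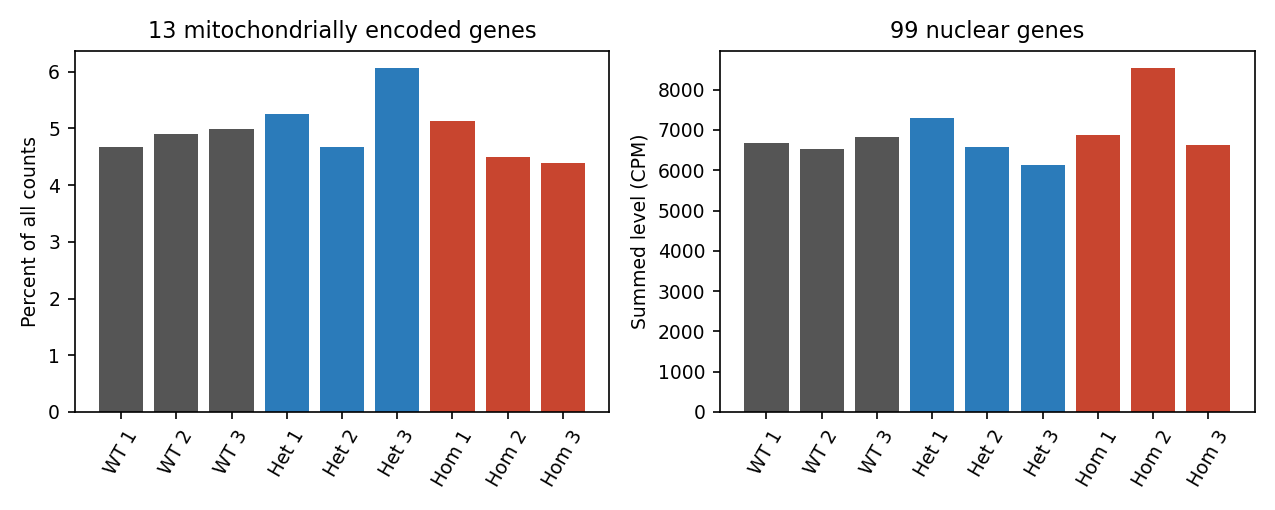
Percent of all counts in the 13 mitochondrially encoded genes (left) and summed CPM of the 99 nuclear genes (right), 1 bar per library, coloured by genotype, on linear axes from 0. The highest mitochondrial share (6.06%) and the lowest nuclear sum (6132 CPM) are both heterozygous replicate 3, and the highest nuclear sum (8539 CPM) is homozygous replicate 2.

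None of the 13 mitochondrially encoded genes passed the edgeR test in any comparison, and DESeq2 called 0 as well. With edgeR, 2 of 13 had an unadjusted p under 0.05 in homozygous cells against wild type (23.2% of all genes), 0 in heterozygous cells (13.5% of all) and 3 between the mutants (18.3% of all). The median log2 fold change was -0.15 in homozygous cells, with 3 of 13 above 0 beside 51.4% of all genes, and 0.04 in heterozygous cells, with 9 of 13 above 0 beside 50.8%. Without heterozygous replicate 3 the heterozygous median turned to -0.06. Over leaving out each library in turn the homozygous median lay between -0.23 and -0.11, and with the transcript length offset it was -0.25. Without homozygous replicate 2 it was -0.11. The libraries did not overlap for 2 genes, MT-ND6 and MT-ATP8, both lower in homozygous cells, beside 15.7% of all genes lower without overlap.

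MT-ND6, a core subunit of complex I and the only mRNA transcribed from the light strand, lies at 14149 to 14673 of the mitochondrial chromosome on the minus strand. Its level was 255, 264 and 267 CPM in wild-type, 245, 213 and 621 in heterozygous and 175, 127 and 204 in homozygous libraries. Every homozygous library lay below every other library, and heterozygous replicate 3 stood far above the rest. The log2 difference of homozygous from wild-type cells was -0.64 (95% interval -1.25 to -0.02, adjusted p = 0.245, edgeR on 9 libraries). The unadjusted p of that edgeR test was above 0.05 although the approximate interval leaves out 0. Without heterozygous replicate 3 the adjusted p was 0.0152. It was 0.0263 in a fit of the 6 wild-type and homozygous libraries and 0.00445 with both heterozygous replicate 3 and homozygous replicate 2 left out. No other alternative run called MT-ND6 against wild type. Those runs include DESeq2, limma-voom, the replicate block, the transcript length offset and leaving out homozygous replicate 2 alone. Between the mutants the log2 difference was -1.09 (SE 0.32, adjusted p = 0.0996, edgeR), and the adjusted p was 0.0355 without the filter on low counts. As a share of the mitochondrially encoded counts, MT-ND6 made up 0.544, 0.528 and 0.520% in wild-type, 0.468, 0.461 and 1.03% in heterozygous and 0.345, 0.287 and 0.469% in homozygous libraries. On this share homozygous replicate 3 exceeded heterozygous replicates 1 and 2. The 6 light-strand transfer RNAs with a row were also highest in heterozygous replicate 3 (20.7 CPM summed, against 11.5 to 17.7 in the others). The next highest sum (17.7 CPM) was in homozygous replicate 2, where MT-ND6 was lowest. By genotype the sums averaged 14.5 CPM in wild-type, 15.7 in heterozygous and 14.4 in homozygous cells, so they did not follow the lower homozygous MT-ND6. Whether the counting used strand is not stated, so sense and antisense reads at this locus cannot be told apart.

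Of the other complex I genes, MT-ND1 had 3309, 4238 and 4339 CPM in wild-type, 3849, 3499 and 4178 in heterozygous and 3677, 3339 and 3674 in homozygous libraries. MT-ND2, MT-ND4 and MT-ND5 spanned 2460 to 3402, 4661 to 6575 and 2304 to 4137 CPM over the 9 libraries. All of these overlapped between genotypes, and their log2 fold changes in homozygous cells lay between -0.15 and -0.24 (adjusted p 0.266 to 0.423, edgeR). MT-ND4L, which shares a transcript and some bases with MT-ND4, had 567, 528 and 589 CPM in wild-type, 512, 505 and 538 in heterozygous and 515, 351 and 538 in homozygous libraries. MT-ND3 had the highest homozygous fold change of the 13, with 507, 547 and 579 CPM in wild-type, 621, 548 and 597 in heterozygous and 627, 787 and 555 in homozygous libraries (log2 0.27 against wild type, SE 0.11, adjusted p = 0.177). Without homozygous replicate 3 its adjusted p was 0.0338 (edgeR), and no other alternative run called it.

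MT-CYB, the only mitochondrially encoded gene of complex III, had the smallest homozygous difference from wild type of the 13, with 3673, 4071 and 4196 CPM in wild-type, 4186, 3776 and 4160 in heterozygous and 4081, 3928 and 3940 in homozygous libraries. The 95% interval of its homozygous log2 difference from wild type ran from -0.15 to 0.16. The catalytic core of complex IV was the most abundant part of the mitochondrial transcriptome, with wild-type levels per kilobase of 8298 ± 158 CPM for MT-CO3, 7927 ± 207 for MT-CO2 and 7793 ± 301 for MT-CO1, against 499 ± 11.7 for MT-ND6. MT-CO1 had 11502, 12151 and 12400 CPM in wild-type, 13150, 11563 and 15906 in heterozygous and 12612, 10006 and 10676 in homozygous libraries. MT-CO2 spanned 4678 to 7257 CPM and MT-CO3 5826 to 8662 CPM, each with heterozygous replicate 3 highest and homozygous replicate 3 lowest. Their log2 differences from wild type lay between -0.11 and 0.07 in homozygous and between 0.17 and 0.22 in heterozygous cells, with a lowest adjusted p of 0.423 (edgeR).

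The complex V pair MT-ATP8 and MT-ATP6 share a transcript and overlap, so some reads cannot be assigned to 1 of them. MT-ATP8 had 505, 436 and 474 CPM in wild-type, 505, 384 and 398 in heterozygous and 435, 307 and 364 in homozygous libraries. The homozygous libraries lay just below the wild-type libraries (435 against 436 CPM at the nearest), with a log2 difference of -0.36 (SE 0.13, adjusted p = 0.121, edgeR). MT-ATP6 had 3081 to 3929 CPM, and its genotypes overlapped (log2 -0.14 in homozygous cells, adjusted p = 0.357).

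**Figure D5:**
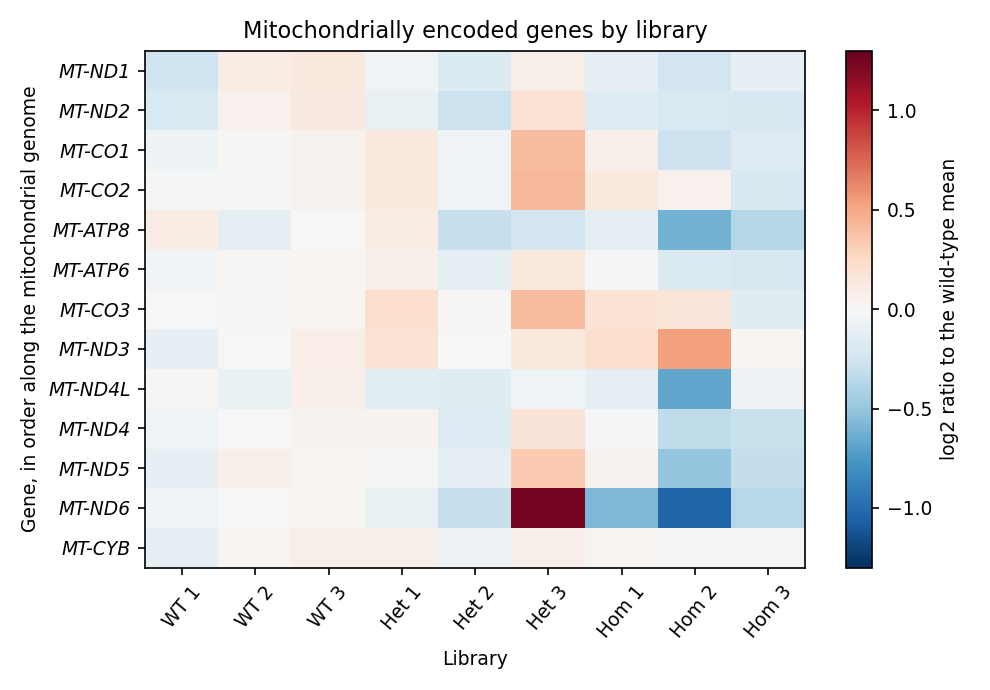
Log2 ratio to the wild-type mean (colour scale) of the 13 mitochondrially encoded genes, in order along the mitochondrial genome, in each of the 9 libraries. The darkest cells are MT-ND6 in heterozygous replicate 3 (621 CPM) and in homozygous replicate 2 (127 CPM), against a wild-type mean of 262 CPM.

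The mitochondrial ribosomal RNAs, which share the heavy-strand promoter region with the mitochondrial mRNAs other than MT-ND6, were also measured. MT-RNR2 had 5766, 5864 and 5814 CPM in wild-type, 5943, 5252 and 6587 in heterozygous and 4972, 4368 and 4898 in homozygous libraries. Its homozygous libraries lay below all others (log2 -0.29 against wild type, SE 0.09, adjusted p = 0.0738, edgeR). Of all genes 15.7% were lower without overlap against wild type. MT-RNR1 had 732 to 849 CPM in wild-type, 622 to 808 in heterozygous and 624 to 763 in homozygous libraries, and its genotypes overlapped. Of the 10 tested mitochondrial ribosomal and transfer RNAs 0 were called in each comparison, where at most 7.68% of all genes were called. Nuclear copies of mitochondrial sequence, which may share reads with the members, summed to between 785 and 1010 CPM over 24 genes, highest in heterozygous replicate 3 like the mitochondrial genes themselves.

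Lists of related genes outside the rule held 259 tested genes in all. Of these, 11 were called lower and 2 higher in homozygous cells against wild type, beside 4.18% and 3.5% of all genes. The share called lower was thus near that of all genes. In heterozygous cells 2 were lower and 1 higher, beside 1.04% and 0.82%. Between the mutants 3 were lower (PDK1, ADM and PSAT1) and 0 higher in homozygous cells, beside 1.22% and 0.986%. Some of the genes lower in homozygous cells act on the mitochondrial genome or on transcription of the chain. TFAM, which packages mitochondrial DNA and starts its transcription, had 65.7, 64.7 and 61.2 CPM in wild-type, 63.2, 61.7 and 61.2 in heterozygous and 53.6, 45.4 and 48.5 in homozygous libraries. Every homozygous library lay below the rest, and TFAM fell by 0.38 on the log2 scale (SE 0.08, adjusted p = 0.0143, edgeR). It was the only called gene of 16 in the list for mitochondrial DNA maintenance and transcription, beside 7.68% of all genes called. The adjusted p rose to 0.0563 when wild-type replicate 1 was left out and to 0.0772 for replicate 2 and was 0.0468 without homozygous replicate 2.

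Of 11 tested nuclear regulators of mitochondrial biogenesis, 3 fell and 0 rose in homozygous cells, beside 4.18% of all genes lower, and 0 were called in heterozygous cells. With heterozygous replicate 3 and homozygous replicate 2 left out, 4 of 12 tested were called lower in homozygous and 3 in heterozygous cells. PPARGC1A, the coactivator PGC-1 alpha, had 4.18, 3.87 and 4.65 CPM in wild-type, 2.28, 2.48 and 3.98 in heterozygous and 1.92, 2.02 and 2.54 in homozygous libraries. It fell by 0.96 on the log2 scale (SE 0.24, adjusted p = 0.0260, edgeR). PPRC1, a related coactivator, fell by 0.41 (SE 0.10, adjusted p = 0.0241), and GABPB1, a subunit of the GA-binding protein that regulates subunit genes, fell by 0.34 (SE 0.08, adjusted p = 0.0226). Without homozygous replicate 2 the adjusted p was 0.0999 for PPARGC1A, 0.0719 for PPRC1 and 0.0332 for GABPB1, which left 1 of the 3 called. Leaving out wild-type replicate 2 (adjusted p 0.0666 to 0.114), wild-type replicate 3 (0.0874 to 0.120) or homozygous replicate 1 (0.0706 to 0.0930) took all 3 below the level of a call. Leaving out wild-type replicate 1 did so for PPARGC1A (0.0607) and GABPB1 (0.0618). NRF1, the nuclear respiratory factor, had 18.0 to 19.7 CPM in wild-type and 19.6 to 21.1 CPM in homozygous libraries and was not called (log2 0.10, adjusted p = 0.613, edgeR).

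Cytochrome c, which carries electrons from complex III to IV, is encoded by CYCS. It had 165, 168 and 162 CPM in wild-type, 159, 150 and 163 in heterozygous and 137, 134 and 132 in homozygous libraries, and fell by 0.30 on the log2 scale (SE 0.07, adjusted p = 0.0216, edgeR). It was the only called gene of the 14 electron carriers and related genes outside the rule, beside 7.68% of all genes called. The call was lost without wild-type replicate 1 (0.0651), 2 (0.126) or 3 (0.0768), or homozygous replicate 1 (0.0581). CYC1, the complex III partner of CYCS, had 94.8 to 99.2 CPM in wild-type and 96.7 to 111 CPM in homozygous libraries.

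The mitochondrial ribosome translates the 13 mitochondrial mRNAs. Of its 76 tested protein genes, 1 rose in each mutant, beside 3.5% of all genes in homozygous and 0.82% in heterozygous cells. The gene was MRPS21, which encodes a small-subunit protein. It had 44.5, 43.3 and 43.9 CPM in wild-type, 90.7, 76.6 and 67.8 in heterozygous and 86.9, 117 and 84.1 in homozygous libraries, with no overlap between mutants and wild type. Its log2 fold change was 1.13 in homozygous (SE 0.13, adjusted p = 0.000190, edgeR) and 0.84 in heterozygous cells (SE 0.13, adjusted p = 0.00456), and both calls held when each library was left out in turn. Against a 1.5-fold change the heterozygous adjusted p was 0.727.

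Oxygen-dependent regulators of respiration and glycolysis held 3 genes that fell and 1 that rose among 20 tested in homozygous cells, beside 4.18% and 3.5% of all genes, and 2 that fell in heterozygous cells, beside 1.04%. PDK1, a kinase that keeps pyruvate out of mitochondria, had 67.3, 60.2 and 55.5 CPM in wild-type, 42.5, 42.9 and 36.0 in heterozygous and 29.002, 24.6 and 25.98 in homozygous libraries. The genotypes did not overlap in any pair. PDK1 fell by 1.21 on the log2 scale in homozygous (SE 0.11, adjusted p = 2.37e-05, edgeR) and by 0.59 in heterozygous cells (adjusted p = 0.0112, and 0.0553 without wild-type replicate 2). ADM, a target of hypoxia-inducible factor, fell by 1.2999 in homozygous and 0.68 in heterozygous cells on the log2 scale, with adjusted p = 3.1e-05 and 0.00884. HIF1A, the oxygen-sensitive factor itself, fell by 0.49 in homozygous cells (adjusted p = 0.0136, with 0.0707 without wild-type replicate 2 and 0.0521 without replicate 3). PFKFB4, a glycolytic regulator, rose by a log2 of 0.41 (adjusted p = 0.0219), and its call was lost without wild-type replicate 1 (0.0671), 2 (0.0859) or 3 (0.110) or homozygous replicate 1 (0.0685). Between the mutants, PDK1 and ADM were called lower in homozygous cells, beside 1.22% of all genes. Those calls held in 19 and 15 of 21 alternatives.

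The remaining lists gave few calls. Of 20 tested genes of the tricarboxylic acid cycle and 22 of mitochondrial RNA processing, 0 were called by edgeR in each comparison. At most 7.68% of all genes were called in a comparison. With both heterozygous replicate 3 and homozygous replicate 2 left out, 2 tricarboxylic acid cycle genes were lower in homozygous cells, and 3 were with the length offset. Of 17 tested genes of the mitochondrial stress response, HSPA9, PSAT1 and MTHFD2 fell in homozygous cells, by 0.30, 0.35 and 0.40 on the log2 scale (adjusted p = 0.0159, 0.0326 and 0.0389, edgeR), beside 4.18% of all genes lower. Between the mutants 1 of 17 was called lower beside 1.22% of all genes: PSAT1 was lower in homozygous cells by a log2 of -0.42 (adjusted p = 0.0308, edgeR), and of the 9 single-library removals the call held only without wild-type replicate 1. HSPA9 is the mitochondrial HSP70 chaperone, and PSAT1 and MTHFD2 act in serine and mitochondrial folate metabolism. Without homozygous replicate 2 their adjusted p was 0.0311, 0.0925 and 0.120. HSPA9 also lost its call without wild-type replicate 2 (0.105) or 3 (0.0871) or homozygous replicate 1 (0.0619). Of the 9 single-library removals, the PSAT1 and MTHFD2 calls held only without heterozygous replicate 1 or 3 or homozygous replicate 3.

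Promoters of the nuclear members were searched for sites of NRF1, YY1 and the GA-binding protein, factors known to regulate the chain. RefSeq promoter windows (GRCh38.p14, 250 bases before to 50 after the start) matched 79 of the 99 nuclear members, and motifs were sought on both strands. The NRF1 motif was in 5 of them (6.33%) and in 1.97% of all 14591 windows. The YY1 motif was in 7 (8.86%) and in 2.17% of all, and the GA-binding protein motif CCGGAAGT in 11 (13.9%) and in 7.05% of all. The capitals in the NRF1 and YY1 lines below are the full letters searched, and no letters are shared by overlap in the lines shown. The NDUFAF1 window held none of these motifs. SDHD held both an NRF1 and a GA-binding protein match, and is shown with ATP5F1C, NDUFB4, SDHB and COX5B as examples; each line is a stretch of 30 bases, 5′ to 3′ on the gene's strand, with the match in capitals.
SDHD NRF1 match (chr11:112086753-112086782): agctgtgtttGCGCATGCGCgacgggtgtg
SDHD GA-binding protein match, read on the other strand (chr11:112086784-112086813): accgcctctcgACTTCCGGttcacccagca
ATP5F1C NRF1 match (chr10:7788145-7788174): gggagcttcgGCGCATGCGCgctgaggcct
NDUFB4 NRF1 match (chr3:120596167-120596196): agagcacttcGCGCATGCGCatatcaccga
SDHB YY1 match (chr1:17054003-17054032, minus strand): gtcaggagccAAGATGGCGGcggtggtcgc
COX5B GA-binding protein match (chr2:97646014-97646043): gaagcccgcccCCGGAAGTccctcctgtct
The tested members with the GA-binding protein motif had a median log2 fold change of 0.10 in homozygous cells, with a range from -0.30 (SDHD) to 0.46 (ATP5PD). Those with the NRF1 motif had a median of 0.02 and those with the YY1 motif 0.16, beside 0.19 for all nuclear members.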

How the data were processed

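Raw read counts per gene were deposited by the authors as 1 table with a column per library. Per the submitters' processing notes, the tools were HISAT2, HTSeq, Trimmomatic, FastQC and SAMtools on hg38, with no versions. The sources used here do not give the annotation release or strand setting. The members and gene lists were chosen with earlier results of these data known.

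Counts were filtered with filterByExpr (16837 genes kept, 9403 removed), scaled with TMM (factors 0.973 to 1.01) and fitted in edgeR 4.0.16 (R 4.3.3) by the quasi-likelihood model, with genotype as the only factor over 9 libraries. Tests were two-sided with Benjamini-Hochberg adjustment over all genes tested, called below 0.05. The common biological coefficient of variation was 0.121. SE is the log2 fold change divided by the square root of F. The 95% intervals are approximate: they multiply this SE by a normal quantile, which makes them narrower than the quasi-likelihood test implies. CPM was computed from the deposited counts with TMM-adjusted library sizes. Library deviations used a pseudocount of 0.5 CPM, and levels per kilobase used merged exon lengths of GENCODE 29.

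The rule for named genes took CHD7, the 13 mitochondrial genes, called members, the most abundant nuclear subunit per kilobase of each complex, tissue-specific pairs, ATP5IF1, members removed by the filter and up to 4 called genes per list. NDUFB8, NDUFA5, SDHD, ATP5PO, NDUFAF4, NRF1, CYC1, MT-RNR1, MT-RNR2 and SDHA with its copies were named after their values were seen. Alternatives were other scalings (relative log expression, upper quartile, without mitochondrial genes), other filters, DESeq2 1.42.0, limma-voom (limma 3.58.1), 6-library fits, a 1.5-fold threshold, a replicate block and leaving out each library. A per-library transcript length offset and leaving out heterozygous replicate 3 with homozygous replicate 2 were added after seeing the data. The test was checked on simulated counts drawn without a shift by transcript length, so the check does not cover that feature of these libraries.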

Additional observations from a re-analysis of the deposited data

How the results depend on the processing

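Over 21 alternatives and 105 tested members, 1 result lost its call (NDUFAF1 in heterozygous cells against a 1.5-fold change) and 28 gained one. A count of 0 reversed results says little, because a change of sign was not counted where a gene was called in neither fit. NDUFAF1 was the only member called in the main fit. Some medians of uncalled genes did change sign when libraries were left out, as given above. The number of called nuclear genes in homozygous cells against wild type, 1 in the main analysis, was 2 without the count filter, 3 with DESeq2 and 2 with the length offset, and ranged from 1 to 10 over leaving out each library. The number of called mitochondrial genes there, 0 in the main analysis, was 1 with 6 libraries, 1 with both heterozygous replicate 3 and homozygous replicate 2 left out, and 0 to 1 over leaving out each library. Against a 1.5-fold change, 0 nuclear genes were called in heterozygous cells. Between the mutants, 2 nuclear genes were called with DESeq2 and 2 with the length offset, and 1 mitochondrial gene without the count filter. The cause of these differences was not tested. The summed nuclear level in wild type, 6687 CPM, was 7036 CPM when the library size excluded mitochondrial genes and 6499 CPM for subunits alone, which follows from what each sum contains.

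Replicate numbers are shared by the genotypes in the labels. Same-numbered libraries correlated at -0.18 to 0.23, with 4 of 9 pairs above 0.1. With 3 libraries per genotype these values cannot tell whether same-numbered libraries share a culture or day. Over all genes, a replicate block raised the calls from 1293 to 1503 for homozygous and from 313 to 492 for heterozygous cells against wild type. Between the mutants it raised them from 372 to 461. Not every library correlated best with its own number. With the replicate block, 2 nuclear genes and 1 mitochondrial gene (MT-ATP8, adjusted p = 0.0225, edgeR) were called in homozygous cells against wild type, 1 and 0 in heterozygous cells, and 1 and 1 (MT-ND6, adjusted p = 0.0316, edgeR) between the mutants.

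In wild-type cells NDUFA7 was at 0.468 CPM, the lowest of the tested subunits, and its log2 fold changes have SEs of 0.46 to 0.47. Overlapping genes cover 33.5% of its exonic bases, and their part in this count was not tested.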
